A study of Mus musculus with 6 samples.

Results

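The transcription factor AP-1 is a dimer of basic leucine zipper proteins, and the 7 genes described here encode its Fos family (Fos, Fosb, Fosl1 and Fosl2) and Jun family (Jun, Junb and Jund) subunits. They were chosen by name and matched to the gene names in the deposited transcript models, and make 7 of 58339 genes. The cells were GL261, a mouse glioma line grown in culture. One group received 1 uM sodium propionate, the salt of a fatty acid that bacteria of the gut release, and the other received 1 uM sodium chloride, which brings the same cation. Total RNA was taken after 4 h, with 3 libraries per salt: chloride 1, 2 and 3, and propionate 1, 4 and 5. The dose is as the labels give it, lies far below the millimolar doses usual for propionate, and whether the unit is right could not be verified from the files. Nothing in the labels states separate cultures for the libraries, so a p-value here covers just the sample-to-sample spread, which may be technical.

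Fos proteins cannot pair with each other and bind DNA as partners of a Jun protein, while Jun proteins also form dimers among themselves. Several of the genes, Fos, Fosb, Jun and Junb above all, are immediate-early genes: growth factors, stress and other signals switch them on within minutes through kinases that act on factors already bound to their promoters, and their short-lived RNA then falls within hours. Fosl1, Fosl2 and Jund are switched on later or kept on more steadily. In gliomas AP-1 is known as a regulator of invasion, of the mesenchymal state and of the response to stress.

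RefSeq promoter windows (GRCm38.p6, the assembly behind mm10) matched 6 of the 7 genes by symbol, and Fosl1 had no entry. The 250 bases before the RefSeq start are shown for Fos, the prototype of its family, and for Jun and Junb, the Jun family genes with the lowest and highest fitted difference between salts. Capitals mark matches, on either strand, to motifs that immediate-early and housekeeping promoters often hold.

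Fos, chr12:85473640-85473889, plus strand: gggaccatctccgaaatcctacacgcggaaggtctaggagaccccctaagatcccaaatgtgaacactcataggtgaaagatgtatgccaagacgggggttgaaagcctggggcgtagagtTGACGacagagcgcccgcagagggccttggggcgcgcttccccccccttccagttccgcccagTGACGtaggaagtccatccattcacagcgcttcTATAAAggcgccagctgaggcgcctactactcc

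Jun, chr4:95052223-95052472, minus strand: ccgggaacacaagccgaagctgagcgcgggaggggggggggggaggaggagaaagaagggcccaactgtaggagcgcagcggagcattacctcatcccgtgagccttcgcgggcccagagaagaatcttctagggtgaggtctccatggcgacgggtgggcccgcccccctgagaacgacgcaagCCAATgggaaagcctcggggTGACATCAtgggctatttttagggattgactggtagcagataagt

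Junb, chr8:84978749-84978998, minus strand: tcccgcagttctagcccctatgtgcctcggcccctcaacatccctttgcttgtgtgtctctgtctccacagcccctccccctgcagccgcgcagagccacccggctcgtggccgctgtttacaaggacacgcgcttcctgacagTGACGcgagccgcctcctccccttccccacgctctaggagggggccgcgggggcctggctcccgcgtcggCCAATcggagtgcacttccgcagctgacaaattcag

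The letters searched were TGANTCA (the AP-1 element itself), TGACNTCA (a CRE-like element of the form found in the Jun promoter), TGACG (the core shared by cyclic AMP response elements), CCAAT and TATAAA, where N is any base. A TGACNTCA match whose N is G also holds TGACG. Fos held TGACG with its first base 129 and 66 bases before the start and TATAAA at 33. Jun held CCAAT at 65 and a CRE-like element at 45, while Junb held TGACG at 106 and CCAAT at 36. Among the genes not shown, Fosb held TGACG at 60, and the windows of Fosl2 and Jund held no match. These last windows do not adjoin the start of the measured gene models. The RefSeq start of Jund (70697739) lies upstream of the gene's start in those models (70698949). That of Fosl2 (32136472) lies inside the gene (from 32135801). Among 32851 RefSeq windows of the same length, TGACG occurred in 17.8%, TGACNTCA in 7.49%, TGANTCA in 6.75%, CCAAT in 33.9% and TATAAA in 12.4%. These matches describe letters only, and no binding was measured.

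Levels are given as TPM (transcripts per 1000000), a relative abundance per transcript length, so the levels of different genes can be set side by side. TPM were summed over the models of each gene and scaled so that the typical gene was equal across libraries. The deposited coverage held 9.15 to 9.47 Gb of counted bases in the chloride libraries and 9.33 to 11.3 Gb in the propionate libraries. Fewer transcripts had coverage in chloride 3 (71452) and propionate 1 (71192) than in the remaining 4 libraries (81178 to 82370). Of 12 glioma and neural progenitor markers, 8 were measured at a mean of at least 1 TPM, led by Vim, Nes, Cd44, S100b and Sox2. Gfap, Sox9, Egfr and Slc1a3 were below that level. Macrophage and microglia markers summed to 4.61 to 6.26 TPM in chloride and 4.76 to 6.14 in propionate, with 5 of 10 (Adgre1, Itgam, Tyrobp, C1qa and C1qb) at 0 in all 6 libraries. Nearly all of this sum came from Cd68, a lysosomal protein gene, at a mean of 3.82 TPM, and Csf1r, at 1.56. Endothelial markers summed to at most 0.360 TPM and lymphoid markers to at most 0.103 in any library. Fibroblast and pericyte markers summed to 176 to 193 TPM in chloride and 167 to 206 in propionate, almost all from Acta2 and Col1a1, with Dcn, Lum and Col1a2 below 1 TPM. Endothelial and lymphoid markers had 0 genes at the level needed for a test. Tested were 8 glioma, 2 macrophage and 3 fibroblast markers. Of these, 0 passed an adjusted p of 0.05 in limma, where 0.00645% of all genes did. The part of the marker genes in the results was not tested. In bulk RNA, fewer cells of a type and less RNA per cell cannot be told apart.

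The 7 genes covered a wide range of levels, from Junb at 93.7 TPM over the 6 libraries to Fosb at 0.338. Jund followed Junb with 65.1 TPM and Fosl2 with 56.3, then Jun with 19.4, Fos with 16.0 and Fosl1 with 6.69. Junb was above Jund in all 6 libraries, with a log2 ratio within a library from 0.34 to 0.85. Jund and Fosl2 did not keep one order: Fosl2 was above Jund in propionate 4 and below it in the other 5 libraries. Fos was likewise above Jun in propionate 4 alone. The libraries of Fosl1 and of Fosb overlapped with those of no other member.

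**Figure D1:**
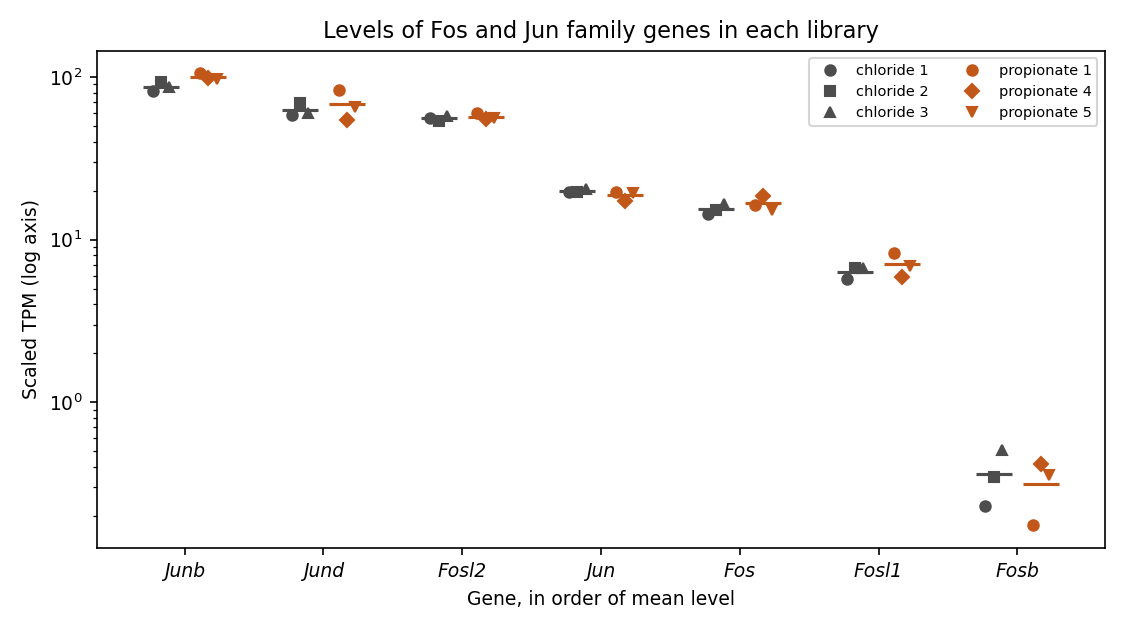
Scaled TPM (log axis) of the 7 genes in each of the 6 libraries, with chloride in grey, propionate in orange, one symbol per library and a bar at each group mean. Junb is the one gene whose 3 propionate libraries all lie above the 3 chloride libraries, and Fosb lies below 1 TPM throughout.

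Of the summed AP-1 subunit RNA, Junb made up 36.4% on average, Jund 25.2%, Fosl2 21.9%, Jun 7.55%, Fos 6.24%, Fosl1 2.59% and Fosb 0.133%. Fos and Jun thus each held less of the RNA than Junb, Jund or Fosl2. The summed level of the 7 genes was 235, 257 and 249 TPM in chloride 1, 2 and 3 and 293, 250 and 260 TPM in propionate 1, 4 and 5. Propionate 1 was the highest library, and the groups overlapped. The Jun family held 67.7%, 70.5% and 67.2% of this sum in chloride and 71.1%, 68.1% and 69.9% in propionate. The mean share was 68.5% ± 1.78 against 69.7% ± 1.54 (SD, n = 3 per group; exact two-sided permutation test, p = 0.4, where 3 against 3 libraries cannot go below 0.1).

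The comparison of salts asked whether the RNA of any subunit differed 4 h after propionate. Of the 7 genes, 6 could be tested, because Fosb did not reach a mean of 1 TPM. With limma on log2(TPM + 1) and Benjamini-Hochberg adjustment over 15515 genes, 0 of the 6 passed an adjusted p of 0.05, where 0.00645% of all genes did. At an unadjusted p under 0.05, 1 of 6 passed (Junb), against 5.14% of all genes. With voom on estimated read numbers 0 of 6 passed the adjusted threshold. At an unadjusted voom p under 0.05, 1 of 6 passed (Junb), against 825 of 15515 genes. By sign, 5 of 6 were higher in propionate, against 51.8% of all genes, and 1 was lower, against 48.2%. Without propionate 1 this count was 3 of 6, as Jund and Fosl2 joined Jun below 0. The median difference of the 6 was 0.11 on the log2 scale, against 0.01 over all genes. Without propionate 1 this median was -0.0006, and without chloride 1 it was 0.0523. With TPM as deposited it was 0.012, on a scale where the median over all genes was -0.0831. Fold changes on this scale understate changes of low genes.

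Junb, a Jun family subunit that activates transcription more weakly than Jun and can oppose it, had the highest level and was the one tested subunit whose groups did not overlap. It stood at 81.5, 93.1 and 86.8 TPM in chloride 1, 2 and 3, against 105, 98.6 and 97.0 TPM in propionate 1, 4 and 5. All 3 propionate libraries were above all 3 chloride libraries, an order that 5.25% of all tested genes showed, and no subunit had the opposite order, which 6.48% of genes showed. The means were 87.1 ± 5.85 and 100.3 ± 4.35 TPM (SD, n = 3 each). The log2 difference was 0.20 (SE 0.07, 95% interval 0.04 to 0.36), with a limma p of 0.0209 before and 0.914 after adjustment. Over 20 alternative settings the difference stayed between 0.11, with TPM as deposited, and 0.25, with adjusted p from 0.279 to 1. The unadjusted limma p exceeded 0.05 with TPM as deposited (0.161), with quantile normalization (0.0811), in the 4 libraries other than chloride 3 and propionate 1 (0.0919), and without chloride 1 (0.0768), chloride 3 (0.0544) or propionate 1 (0.0522). About 6711 to 9486 reads per library lay behind the value, estimated from coverage. The gene (ENSMUSG00000052837, chromosome 8, 84974484 to 84978718, minus strand, mm10) overlaps Prdx2 on the opposite strand, which stood at 301 to 389 TPM. The sources used here do not give the strand setting of the quantification, so reads from the overlap cannot be told apart. The single-exon coding model of Junb (ENSMUST00000064922) carried 99.2% to 99.8% of the gene's TPM and had a log2 difference of 0.20 (SE 0.08; limma adjusted p = 0.863 over 35755 transcripts).

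Jund, the Jun family member that is usually present in resting cells, varied most among the tested subunits. It stood at 58.4, 68.7 and 60.4 TPM in chloride, against 83.4, 54.5 and 65.5 TPM in propionate 1, 4 and 5. Propionate held both the highest and the lowest library, so the groups overlapped. The log2 difference was 0.10 (SE 0.15, 95% interval -0.26 to 0.45; limma adjusted p = 0.944), and it was -0.06 without propionate 1, 0.24 without propionate 4, 0.17 without chloride 2 and 0.05 without chloride 1. With TPM as deposited the difference was 0.0022. The residual SD of Jund, 0.23 on the log2 scale, was above that of 78.1% of tested genes. Jund is a single-exon gene (ENSMUSG00000071076, chromosome 8, 70698949 to 70700616, plus strand), and the antisense gene Gm11175 that overlaps it was listed at 0 in all 6 libraries.

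Jun, the strongest activator of its family and the usual partner of Fos, was the one tested subunit with a negative difference. It stood at 19.6, 19.7 and 20.6 TPM in chloride, against 19.6, 17.3 and 19.4 TPM in propionate 1, 4 and 5. Propionate 4 was the lowest library, and propionate 1 lay within the chloride values. The log2 difference was -0.09 (SE 0.07, 95% interval -0.25 to 0.08; limma adjusted p = 0.928), and it was negative in all 20 alternatives. Its size ranged from -0.0297 without propionate 4 to -0.178 with TPM as deposited. This single-exon gene (ENSMUSG00000052684, chromosome 4, 95049034 to 95052222, minus strand) overlaps the antisense gene Junos, which stood at 1.01 to 1.99 TPM.

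**Figure D2:**
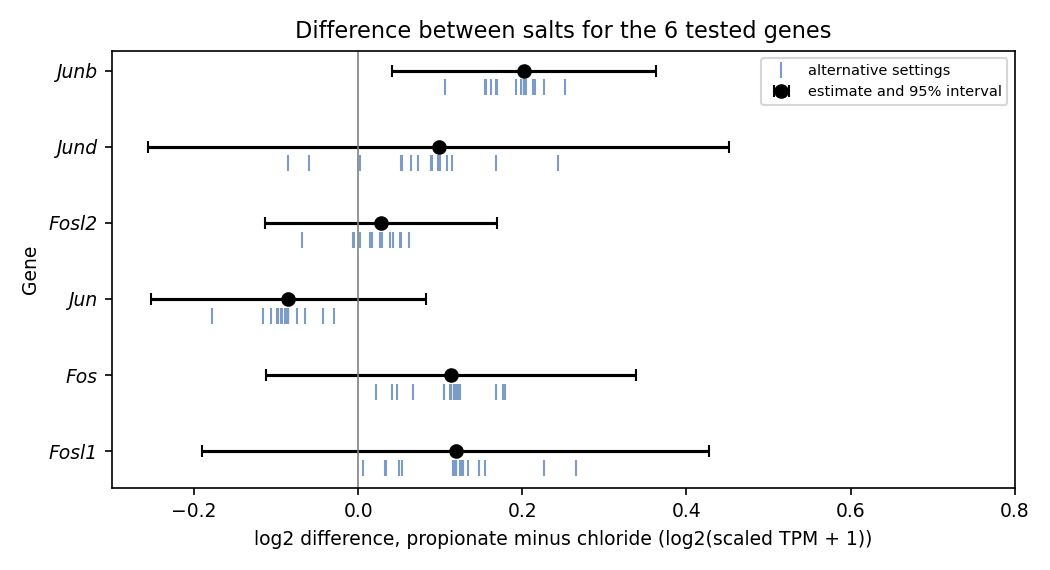
Log2 difference, propionate minus chloride, for the 6 tested genes, with black points and bars for the estimate and its 95% interval and blue ticks for the 20 alternative settings. The interval of Junb (0.04 to 0.36) lies above 0 before adjustment, and those of the other 5 genes span 0.

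Fos, the prototype Fos subunit and an immediate-early gene, was at 14.3, 15.1 and 16.6 TPM in chloride, against 16.4, 18.6 and 15.2 TPM in propionate 1, 4 and 5. Propionate 4 was the highest library, and the groups overlapped. The log2 difference was 0.11 (SE 0.10, 95% interval -0.11 to 0.34; limma adjusted p = 0.929). With 1 library left out it ranged from 0.0407 without propionate 4 to 0.179 without propionate 5, with 0.067 without chloride 1, and it was 0.0217 with TPM as deposited. Its coding model (ENSMUST00000021674) carried 94.5% to 99.4% of the gene's TPM. The gene (ENSMUSG00000021250) lies on chromosome 12, 85473890 to 85477273, plus strand.

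Fosl2, a Fos family subunit without the strong activation domain of Fos, was the Fos family gene with the highest level and the least variable subunit. It stood at 55.7, 53.7 and 57.9 TPM in chloride, against 59.7, 55.1 and 55.8 TPM in propionate 1, 4 and 5. The groups overlapped. The log2 difference was 0.03 (SE 0.06, 95% interval -0.11 to 0.17; limma adjusted p = 0.962), with a negative sign for TPM as deposited (-0.07) and after quantile normalization (-0.0054). Its residual SD of 0.06 was above that of 9.60% of tested genes. It was measured with 15433 to 19008 estimated reads per library, more than any other subunit, and its coding model, of 6537 nt, is the longest coding model that led a subunit. That model (ENSMUST00000031017) carried 84.6% of the gene's TPM in chloride 3 and 93.4% to 97.1% in the other libraries. In chloride 3 alone an assembled model of 4 exons took a further 8.85%. The gene (ENSMUSG00000029135) lies on chromosome 5, 32135801 to 32157842, plus strand.

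Fosl1, whose protein Fra-1 is tied to invasion and mesenchymal states in many tumours, was much lower than Fosl2. It stood at 5.70, 6.71 and 6.66 TPM in chloride, against 8.33, 5.88 and 6.89 TPM in propionate 1, 4 and 5. Propionate 1 was the highest library and propionate 4 lay below 2 of the chloride libraries. The log2 difference was 0.12 (SE 0.13, 95% interval -0.19 to 0.43; limma adjusted p = 0.938). It was 0.0054 without propionate 1, 0.0528 without chloride 1, 0.226 without propionate 4 and 0.27 with reference transcripts alone. The gene (ENSMUSG00000024912) lies on chromosome 19, 5447547 to 5455946, plus strand, and overlaps Ccdc85b on the opposite strand, at 1.41 to 1.80 TPM.

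The total of Fosl1 was divided among 4 models. The coding model of 4 exons (ENSMUST00000025850) stood at 2.02, 1.62 and 0.972 TPM in chloride, against 3.01, 2.68 and 2.02 TPM in propionate 1, 4 and 5. Chloride 3 was the lowest library, and chloride 1 and propionate 5 were equal to within 0.01 TPM. The fitted log2 difference of this model was 0.50 (SE 0.24, 95% interval -0.10 to 1.11; limma adjusted p = 0.863 over 35755 transcripts, of which 0.0364% were called). An assembled model of 1 exon, which runs through the first intron, carried 26.5% to 43.4% of the gene's TPM, and its share was lower in each propionate library (26.5% to 28.5%) than in each chloride library (32.5% to 43.4%). This share was picked after its values were seen, and no rate of such separation over all models is given here. For gene levels, 11.7% of all tested genes did not overlap between groups. The retained-intron model (ENSMUST00000235958) ranged from 0.164 to 2.70 TPM, with both extremes in chloride, and rested on 3.73 to 59.3 estimated reads. The division of reads among models is the quantifier's estimate, and at 496 to 622 reads per library for the gene it was imprecise.

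**Figure D3:**
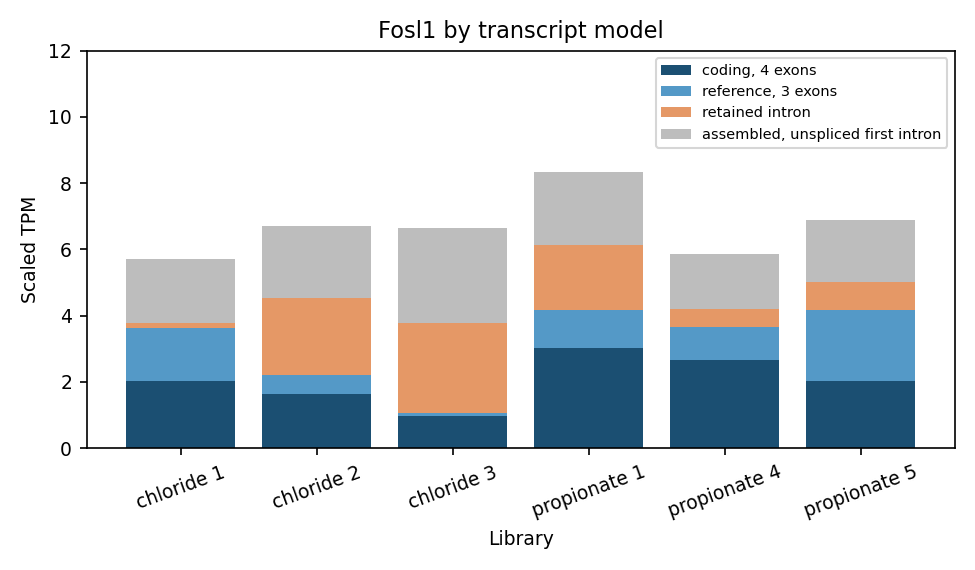
Stacked bars of scaled TPM of the 4 Fosl1 transcript models in each library, with 3 reference models and 1 assembled model. The coding model is lowest in chloride 3 (0.972 TPM) and highest in propionate 1 (3.01 TPM), and the retained-intron model is largest in chloride 2 and 3.

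Fosb, an immediate-early gene with a shorter splice form that lacks part of the activation domain, was the lowest of the subunits. It stood at 0.229, 0.344 and 0.507 TPM in chloride, against 0.175, 0.417 and 0.355 TPM in propionate 1, 4 and 5, from 27 to 82 estimated reads. The groups overlapped. With no filter on low values the fitted difference was -0.05 on the log2 scale (SE 0.11, adjusted p = 0.935 by limma). The TPM of this gene (ENSMUSG00000003545, chromosome 7, 19302696 to 19310051, minus strand) was divided over 6 of its 7 models, and the model that led differed between libraries. Its splice forms could therefore not be compared at this depth.

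Of 23 models of the 7 genes, 2 of them assembled, 10 reached a mean of 1 TPM and 0 of these passed the adjusted threshold in limma. The unadjusted p of the Junb coding model was 0.0530, the lowest of the 10.

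Ratios between subunits within a library do not depend on the scaling. Of the 15 ratios among the 6 tested genes, 3 did not overlap between groups, and they are named after their values were seen. All 3 are formed from Jun, Junb and Fosl2 alone, so each is fixed by the others and they are not separate results. No rate of such separation over all pairs of genes is given here. The log2 ratio of Jun to Junb was -2.06, -2.24 and -2.07 in chloride and -2.42, -2.51 and -2.32 in propionate 1, 4 and 5, a mean difference of -0.29. Every propionate library thus had less Jun per Junb than every chloride library. Such separation was common: the ratio to Junb did not overlap for 30.3% of all tested genes. The ratio of Fosl2 to Junb was likewise lower in propionate by its mean, at -0.82 ± 0.02 against -0.64 ± 0.13 (SD, n = 3), with chloride 2 at -0.795 next to propionate 5 at -0.798. The ratio of Fosl2 to Jun was 1.60 ± 0.07 in propionate and 1.48 ± 0.03 in chloride, where 13.6% of all tested genes had a ratio to Jun that did not overlap.

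**Figure D4:**
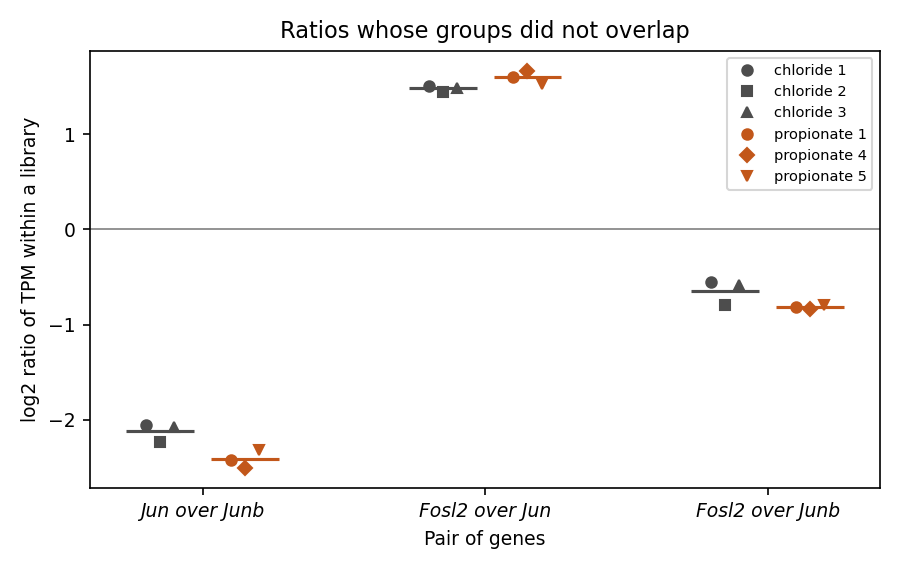
Log2 ratio of TPM within a library for the 3 pairs of genes whose groups did not overlap, with symbols for libraries and bars for group means. Jun over Junb lies from -2.24 to -2.06 in chloride and from -2.51 to -2.32 in propionate.

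The subunits did not move as a block across libraries. The median of the 6 genes, each centred on its own mean over the 6 libraries, was highest in propionate 1 (0.13) and lowest in chloride 1 (-0.15), with propionate 4 at -0.09. As a description over 6 libraries, Fosl1 and Jund varied most alike (Pearson r = 0.94), both high in propionate 1 and low in propionate 4 and chloride 1, while Fos and Jun had r = -0.59. The 5 genes whose log2 values were most like the mean of the 6 subunits were the histone gene H3c7 (r = 0.98), Ptpn21 (r = 0.98), the pseudogene Rpl5-ps1 (r = 0.97), Ndufa2 (r = 0.97) and the small nucleolar RNA Snord17 (r = 0.97), out of 5021 candidates over the 6 libraries. All 5 were highest in propionate 1, as was the mean that they were picked to resemble, so this follows from the choice. For H3c7 that library stood at 687 TPM, against 444 to 512 in the others.

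Propionate 1 also lay outside the other libraries in the coverage along the coding models of Fos and Fosl2, and within them for Fosl1. In the coding model of Fos the first exon had 1.06 times the coverage of the last in propionate 1 and 0.420 to 0.621 times in the other 5 libraries. In that of Fosl2 the ratio was 0.649 in propionate 1 and 0.439 to 0.562 in the others. In that of Fosl1 propionate 1, at 1.67, lay inside the range of the others, from 0.823 to 2.66. Over 9345 transcripts with at least 3 exons the median log2 ratio was -1.23 in propionate 1 and -1.51 to -1.35 in the others. The part of this coverage difference in the levels of Jund, Fosl1 and the other subunits was not tested.

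**Figure D5:**
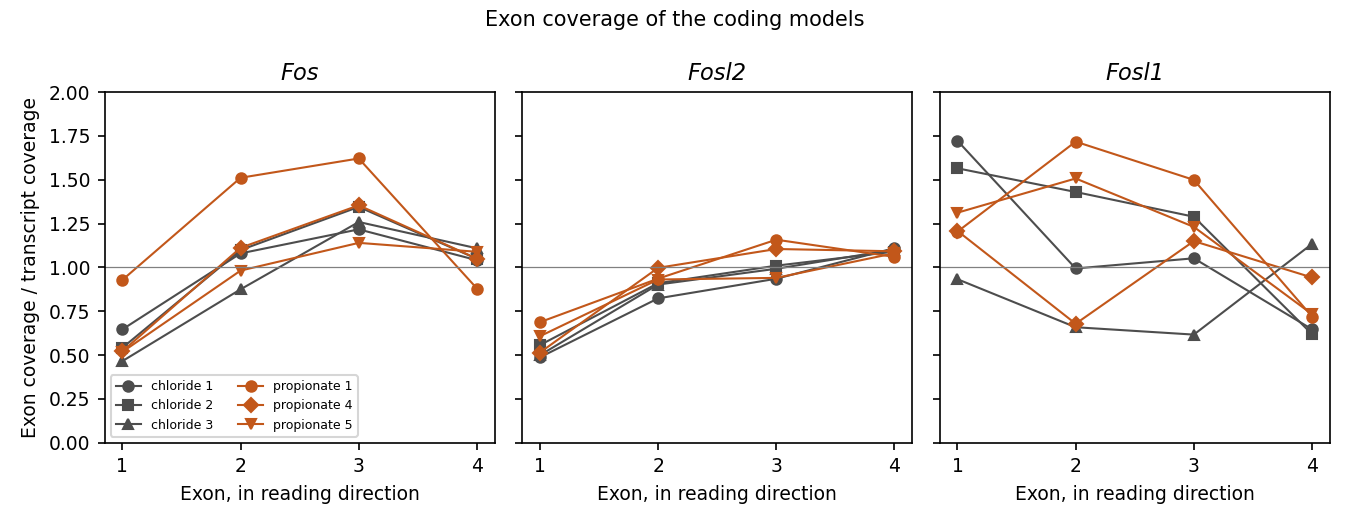
Coverage of each exon relative to the mean coverage of its transcript, in reading direction, for the 4-exon models of Fos, Fosl2 and Fosl1, with 1 line per library. Propionate 1 has the highest first exon in Fos and Fosl2, and the profiles of Fosl1 cross.

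Genes around AP-1 were read from lists. In each, 0 members passed the adjusted threshold in limma in either direction, where 0.00645% of all genes did. Of all genes, 5.14% had an unadjusted limma p under 0.05, 51.8% were higher and 48.2% lower by sign. Of 23 genes for other basic leucine zipper factors that pair with or resemble AP-1 subunits, 18 were tested, 10 with a higher and 8 with a lower mean and 0 with an unadjusted p under 0.05 (median 0.01). The 2 with the smallest p were Jdp2, a partner that represses AP-1 sites, at 15.2 ± 2.13 TPM under chloride and 13.0 ± 1.64 under propionate, and Nfe2l2, the regulator of the oxidative stress response, at 27.8 ± 0.830 and 30.4 ± 2.51. Atf4, the stress-response factor with the highest mean level of the list, ranged from 15.4 to 160 TPM within propionate alone and shares an assembled locus with another gene.

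Of 22 kinases that act on AP-1 proteins or lie upstream of such kinases, 21 were tested, with 0 at an unadjusted p under 0.05 and a median of -0.02. The Jun N-terminal kinase genes Mapk8 (36.5 ± 2.21 TPM in chloride, 33.8 ± 1.21 in propionate) and Mapk9 (33.0 ± 1.63 and 30.9 ± 1.30) had the smallest p, at adjusted values of 0.914 and 0.921 by limma. All 17 factors that bind Fos and Jun promoters were tested, with a median of -0.0040. Of these, 1 had an unadjusted limma p under 0.05, against 5.14% of all genes. That gene was Elk4, a partner of serum response factor, at 34.9 ± 3.46 TPM after chloride and 29.3 ± 3.30 after propionate, a log2 difference of -0.24 (SE 0.10, adjusted p = 0.914 by limma). Elk4 shares an assembled locus with another gene. Next to it were Mef2a (24.5 ± 1.69 and 22.6 ± 1.33 TPM) and, with the highest level, Elk3 (88.0 ± 2.77 and 93.5 ± 5.59 TPM).

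Of 17 genes for the decay of AP-1 RNA and protein, all were tested, with a median of 0.01 and 0 at an unadjusted p under 0.05. Hnrnpd, which encodes the AU-rich element binding protein AUF1, stood at 37.5 ± 7.36 TPM under chloride and 30.1 ± 2.61 under propionate, Pum2 at 85.9 ± 0.388 and 81.6 ± 1.10, and Ddb1, the most abundant, at 311 ± 11.1 and 323 ± 8.69. The list median of the 30 AP-1 target genes, of which 23 were tested, was 0.04 against 0.01 over all genes. By sign 17 were higher and 6 lower, against 51.8% and 48.2% of all genes. An unadjusted limma p under 0.05 was found for 2 of the 23, against 5.14% of all genes, and both were higher. Mt2, a metallothionein, was at 78.0, 77.5 and 78.6 TPM in chloride, against 83.8, 93.5 and 93.4 TPM in propionate (log2 difference 0.21, SE 0.06, adjusted p = 0.914 by limma). Hbegf, a ligand of the EGF receptor, was at 287, 302 and 285 TPM in chloride, against 304, 359 and 340 TPM in propionate (log2 difference 0.19, SE 0.08, adjusted p = 0.914 by limma). In both, all propionate libraries were above all chloride libraries, as in 4 of the 23 tested targets against 5.25% of all genes. The opposite order was found for 0 of the 23, against 6.48% of all genes. The list was chosen with earlier results of these data known, so its counts and median cannot serve as a test. Itgb1, the target with the highest level, stood at 1815 ± 38.8 and 1783 ± 153 TPM. The matrix metalloproteinase targets Mmp3, Mmp9, Mmp10 and Mmp13 were below 1 TPM.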

How the data were processed

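Per the labels' protocols, an RNeasy Mini Plus kit gave the RNA and a TruSeq Stranded Total RNA kit the libraries. HISAT2, StringTie, fastp, bcl2fastq and mm10 appear, without roles, in the submitters' processing notes. The deposited values are coverage, FPKM and TPM per transcript, estimated by the authors with StringTie 2.1.1 for a shared set of 157296 models, per the file headers. No counts were among them, and the depth was read from coverage. Assembled models (14805) were joined to the reference gene of the same locus with the largest exon overlap (11710) or kept apart (3095). GENCODE M21 assigned most reference transcripts to genes and gave gene types. Exons came from the deposited models, as did names where present. TPM were summed per gene, leaving out genes with no transcript of 200 nt or more. Libraries were scaled by the median ratio to the geometric mean. The factors were 1.09, 0.990 and 1.03 in chloride 1, 2 and 3. In propionate 1, 4 and 5 they were 0.971, 0.966 and 0.967. Division by these factors raised propionate relative to chloride and moved the median log2 difference over all genes from -0.0831 to 0.0055. The 15515 genes that averaged 1 TPM or more entered limma 3.58.1 (R 4.3.3; lmFit, then eBayes with trend) as log2(TPM + 1). Tests were two-sided, p-values were adjusted over all of these genes by Benjamini-Hochberg, and 0.05 was the threshold. Transcripts were tested alike. Read numbers for voom were estimated from coverage and a read length of 101 nt. The fit was tested on simulated data. Other steps used numpy 2.4.6, pandas 2.3.3 and matplotlib 3.10.9 under Python 3.11.15. The members and the gene lists were chosen with earlier results of these data known. Named genes were all 7 members, and in each list any called members, or failing that the 2 of smallest p and the 1 of highest level. One gene that this rule would name is not reported here. The genes most alike were those with the highest Pearson r to the mean of the tested members, among reference genes that averaged 5 TPM or more with an SD of at least 0.1. Alternatives changed the scaling, the pseudocount, the filter, the libraries, the weights, the variance model and the transcript models, as described below. A further alternative added a term to the fit that set chloride 3 and propionate 1 apart from the other libraries. With that term 1339 of 15515 genes had an unadjusted limma p under 0.05, against 797 in the reported fit. The adjusted limma p of Junb was then 0.576.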

Additional observations from a re-analysis of the deposited data

How the results depend on the processing

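In each of 20 alternatives, 0 of the tested Fos and Jun family genes were called by limma or voom, and 0 of their transcripts in each of 15. Junb, Fos and Fosl1 kept a positive difference and Jun a negative one in all 20. The difference of Fosl2 was negative with TPM as deposited (-0.0679), with quantile normalization (-0.0054) and without propionate 1 (-0.0065, in a range of -0.0065 to 0.0524 with 1 library left out). That of Jund was negative without propionate 1 (-0.0596, in a range of -0.0596 to 0.243) and in the 4 libraries other than chloride 3 and propionate 1 (-0.0859). The median member difference was -0.0006 without propionate 1, in a range of -0.0006 to 0.13 with 1 library left out. The count over all genes, 1 in the reported fit, was 0 with no filter and with voom, 2 with a mean of at least 5 TPM, with library weights and with TPM summed over the assembled locus, 6 in the 4 libraries, and 1 to 4 with 1 library left out (4 without propionate 1). The cause was not tested. No paired analysis was possible because the groups share only replicate number 1. Depth limits Fosb and the models of Fosl1, and 3 libraries per salt gave a median SE of 0.11 on the log2 scale, so small differences were not detectable.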
